A study of Mus musculus with 305 samples.

Results

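Cytosolic ribosomal protein genes encode the proteins that, with ribosomal RNA, make up the large and the small subunit of the ribosome in the cytoplasm. They were chosen here by gene symbol and mean level. A row of the count table was a member when its Ensembl identifier was a protein-coding mouse gene named Rpl or Rps with a number (and at most 1 closing letter a, x, l or y), or was Rplp0, Rplp1, Rplp2 or Rpsa, and when its mean level was at least 1 CPM (the read count scaled to the library's total in the usual way). The symbol pattern matched 83 of 52636 genes, and 76 of them were members: 45 of the large subunit and 31 of the small subunit. Of the 7 left out, Rpl24, Rpl3l, Rpl39l and Rpl10l were protein-coding but at or under 0.325 CPM, and Rpl32l, Rpl6l and Rps4l were annotated as pseudogenes. The level listed for Rpl24 is that of the 1 Ensembl identifier carrying this symbol in the annotation used here. All 76 members passed the filter on low counts in every test below.

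The study measured RNA in 6 brain regions of 51 mice, all male and wild-type, after 15 d of intravenous self-administration of saline or heroin. The labels name the regions NAc (in common use the nucleus accumbens), dStri (dorsal striatum), VTA (ventral tegmental area), PFC (prefrontal cortex), BLA (basolateral amygdala) and vHPC (ventral hippocampus). S24 (8 mice) and H24 (11 mice) had taken saline and heroin, respectively, and were studied 24 h into withdrawal. The other 4 groups, of 8 mice each, were studied after 30 d of withdrawal, a challenge injection and a drug-seeking test of 2 h: SS had saline intake and a saline challenge, SH saline intake and a heroin challenge, HS heroin intake and a saline challenge, and HH heroin at both times. All groups had the self-administration procedure, and the sources used here name neither the strain nor the age. Each mouse gave 1 library per region, except that BLA had 7 S24 libraries, with none listed for mouse 37.

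The ribosomal proteins are made in near-equal numbers, because each ribosome holds 1 copy of almost all of them and the stalk proteins Rplp1 and Rplp2 in more. Their mRNAs are among the most abundant of a cell. Most begin with a cytosine followed by a run of pyrimidines, the 5′ terminal oligopyrimidine tract, through which the kinase mTOR and the RNA-binding protein Larp1 set how strongly they are translated. Neurons make ribosomes in the cell body and also translate these mRNAs in dendrites and axons.

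RefSeq promoter sequence on GRCm38.p6, the assembly that corresponds to mm10, was at hand for 56 of the 76 members. A run of at least 7 pyrimidines that began with C and reached within 10 bases of the annotated start was found in 31 of the 56 members (55.4%), and in 18.3% of the 27025 genes with such a sequence. The letters CCGGAA, the core bound by ETS family factors, were present on either strand in 57.1% of the members and 16.7% of all genes. The letters AAGATGGC, part of the motif of the factor YY1, were present on either strand in 5 of the 56 members and 862 of the 27025 genes. TATAAA was present in 10.7% and 15.7%. A match describes letters only and is not a measured binding site. The 8 windows below are shown because their genes carry results further on and because they show how the tract varies at the start of transcription. Each runs 5′ to 3′ from 12 bases before the annotated start to 18 bases from it, on the gene's strand, with the tract in capitals.

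Rps27, chr3:90213631-90213660, minus strand: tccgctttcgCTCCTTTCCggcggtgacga
Rps6, chr4:86857350-86857379, minus strand: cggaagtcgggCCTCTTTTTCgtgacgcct
Rpl15, chr14:18270969-18270998, minus strand: ggagaaagCCTTCTTCCTTTCCTCTggcgg
Rpl28, chr7:4792953-4792982, plus strand: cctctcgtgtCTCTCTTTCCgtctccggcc
Rpl35, chr2:39005114-39005143, minus strand: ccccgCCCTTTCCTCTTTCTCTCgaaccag
Rplp2, chr7:141447639-141447668, plus strand: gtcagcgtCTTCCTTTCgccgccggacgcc
Rps26, chr10:128626489-128626518, minus strand: gggcaagccgccggatCCTCTTTCgagtct
Rpl38, chr11:114668568-114668597, plus strand: ggaagcctcgttCTTTCCCCgttctcttcg

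The tracts in these windows ranged from 8 bases in Rps26 and Rpl38 to 17 in Rpl15 and 18 in Rpl35. Values of the 31 members with a tract and the 25 without are set side by side, with no test of their difference. The median log2 difference from the other regions in saline mice was 0.23 and 0.22 in NAc, -0.16 and -0.14 in vHPC, and -0.067 and -0.030 in PFC. In NAc 25 of 31 and 22 of 25 were called higher, by the test described below, where 28% of all genes were. Called lower were 20 and 18 in vHPC (24.4% of all genes). In PFC they were 10 and 5 (25.8%), and in dStri 4 and 1 (30.6%).

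The level of a gene was compared with that of another only per length, as CPM per kilobase of its principal transcript, averaged over the libraries used. The highest were Rplp1 at 816.6, Rps29 at 692.0, Rps15 at 520.9, Rpl41 at 434.9 and Rps27 at 376.1. Rplp1 is a stalk protein that helps recruit elongation factors, Rps29 and Rps27 are small zinc-binding proteins of the small subunit, and Rpl41 is among the shortest peptides known to be made by animal cells. The lowest were Rps27l at 12.5, Rpl13a at 13.8, Rps15a at 25.0, Rps20 at 27.1 and Rpl22 at 38.5. Rps27l is a paralogue of Rps27, encoded by a gene of its own. The order depends on the annotated transcript: the principal transcripts of Rps15a and Rps20 are 5130 and 3706 bases long.

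**Figure D1:**
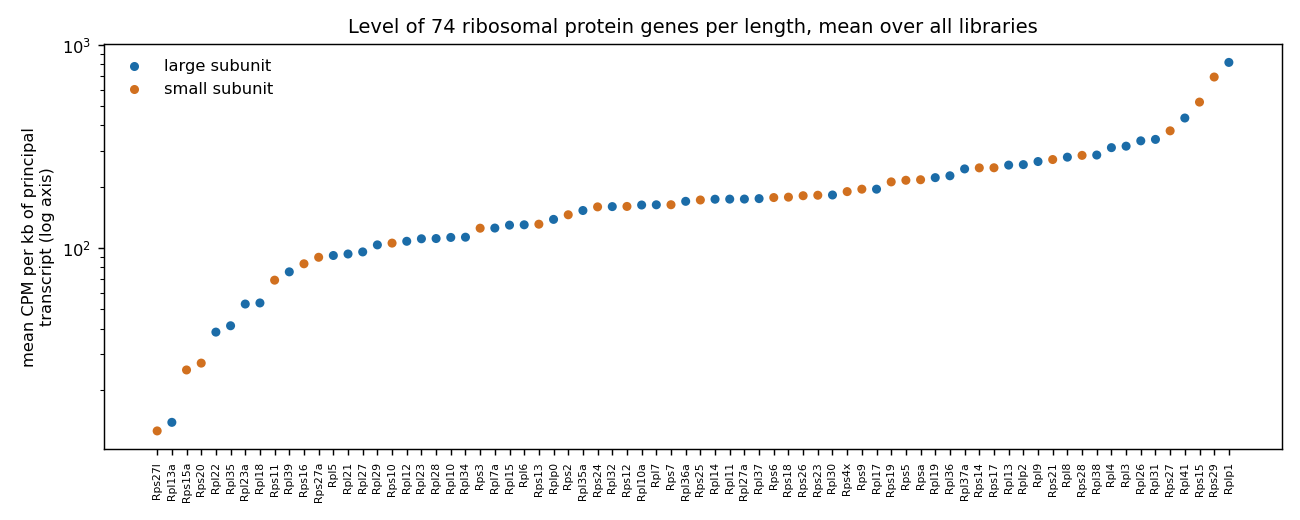
Mean level of 74 members over the libraries used, in CPM per kilobase of the principal transcript (log axis), with large and small subunit genes marked. Rplp1 lies at the top at 816.6 and Rps27l at the bottom at 12.5.

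Between these ends stood the other stalk proteins, Rplp2 at 256.5 and Rplp0 at 137.9, and Rpsa, a small-subunit protein also known as the laminin receptor, at 216.1. Rps6, whose phosphorylation by S6 kinases is a common readout of mTOR activity, was at 176.6, and Rpl10, which joins the large subunit late in its assembly, at 112.4. Rps27a, made as a fusion with ubiquitin, was at 89.8, and Rpl39, which lines the exit tunnel, at 76.1. Ribosomal protein genes have many processed copies in the genome, and reads that fit several places can be lost or split. Only pseudogenes named with the symbol of a member and the suffix -ps were counted, and Rpl31 and Rps12 had 23 of these each. The pseudogenes so named held 30.5% of the reads of gene and pseudogenes together for Rps10, 22.1% for Rpl23a, 17.6% for Rpl14, 13.2% for Rpl38, 11.25% for Rpl36a and 6.57% for Rps6, and a median of 0.345% over the members. Pseudogenes under other names, such as Rps4l at 19.4 CPM and Rpl6l at 15.5 CPM, are not in these shares.

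Libraries held 19.31 to 61.35 M counts (median 31.5 M), apart from VTA HH mouse 7 with 0.89 M, which was left out of everything below. The rank correlation with the other libraries of the region was unusually low in 6 more, which are said to stand apart: BLA H24 mice 39 and 42, BLA SS mouse 6, VTA S24 mouse 37, dStri HH mouse 9 and vHPC HH mouse 18. Libraries of a region share a series of sample codes, so region and library series cannot be told apart. Defining markers were set against the labels. Those of dopamine neurons summed to a median of 3010 CPM in VTA (201.2 to 6627) and 16.6 to 39.6 elsewhere. Outside VTA, BLA HH mouse 16 was at 295.6, and the others reached at most 50.7. In BLA the counts of members higher for the challenge and for history are given with and without this library. The other values for BLA that use HH mice include it. Within VTA the lowest HH library was at 201.2 and the lowest SH library at 238.8. Markers of striatal projection neurons summed to medians of 4028 in dStri and 2902 in NAc against 49.4 to 551.7 in the other regions. BLA libraries ran from 152.4 to 1350, and a vHPC SH library was at 483.4. Those of excitatory neurons reached 936.1 in a VTA S24 library, where the group median was 50.4. No library of VTA or vHPC was left out for its markers. The regions also differed in oligodendrocyte markers, from a median of 1787 CPM in PFC to 13850 in VTA, and in the share of reads that aligned to more than 1 place, from 8.17% in BLA to 12.2% in NAc. Choroid plexus markers had medians of 65.6 CPM in BLA (14.3 to 10130) and 62.1 in vHPC (8.48 to 15110), against 4.41 to 11.5 in the other regions. Among the saline SS libraries they reached 6045 in BLA and 9289 in vHPC. The part of these in the regional results below was not tested. In bulk tissue, fewer cells of a type and less RNA per cell cannot be told apart.

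A single member value stood far from all others. Rps16, a small-subunit protein (chromosome 7, 28350652 to 28353155, GRCm38), was at 5.80 CPM (157 counts) in the PFC library of S24 mouse 50, where the PFC median was 85.5. In the other 5 regions of this mouse it was between 60.4 and 113.3, and the lowest of all other libraries was 42.1. Of the 23104 member values, 8 lay over 1 log2 unit from the median of their region. Results that rest on this value are given with and without the library.

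How do the regions differ in mice that never took heroin? In the saline mice (S24 and SS together, 16 libraries per region and 15 in BLA), the members were highest in NAc and lowest in vHPC. Together they took 1.302% ± 0.11 (SD, n = 16) of all counts in NAc, 1.181% ± 0.11 in VTA, 1.113% ± 0.073 in dStri, 1.07% ± 0.08 in PFC, 1.04% ± 0.10 (n = 15) in BLA and 0.98% ± 0.086 in vHPC. Averaged over the 76 genes as log2 CPM, the level was 7.09 ± 0.13 in NAc, 6.96 ± 0.13 in VTA, 6.90 ± 0.10 in dStri, 6.87 ± 0.11 in BLA, 6.86 ± 0.10 in PFC and 6.79 ± 0.12 in vHPC. Libraries of NAc ran from 6.83 to 7.27 and those of vHPC from 6.44 to 7.02, so the ends of this order overlapped, and neighbours in it differed by less than, or by about, 1 SD. The lowest vHPC value was that of SS mouse 32.

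Taken gene by gene, 72 of 76 members (94.7%) differed between regions, where 87.4% of the 21318 genes tested did (edgeR's quasi-likelihood test with Benjamini-Hochberg adjustment, adjusted p under 0.05). The share is near that of all genes. The direction of the difference, in contrast, was uneven. Against the mean of the other 5 regions, 66 members were higher in NAc and 1 lower, where 28% of all genes were higher and 25.6% lower. In VTA 33 were higher and 14 lower (33.8% and 36.3% of all genes), and in dStri 11 and 9 (30.4% and 30.6%). In PFC 4 were higher and 24 lower (26.7% and 25.8%), in BLA 0 and 18 (23.1% and 18.5%), and in vHPC 2 and 53 (25.6% and 24.4%). In S24 mice alone, and so without SS mouse 32, 55 members were called higher in NAc and 36 lower in vHPC, from fewer libraries.

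The shifts were small. The median log2 difference of the members was 0.23 in NAc, 0.058 in VTA, 0.0042 in dStri, -0.057 in PFC, -0.066 in BLA and -0.15 in vHPC. Over all genes tested it lay between -0.046 in VTA and 0.024 in NAc. Of the large and small subunit genes, 38 of 45 and 28 of 31 were called higher in NAc, 31 of 45 and 22 of 31 lower in vHPC, and 11 of 45 and 13 of 31 lower in PFC. The 2 subunits were not tested against each other.

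**Figure D2:**
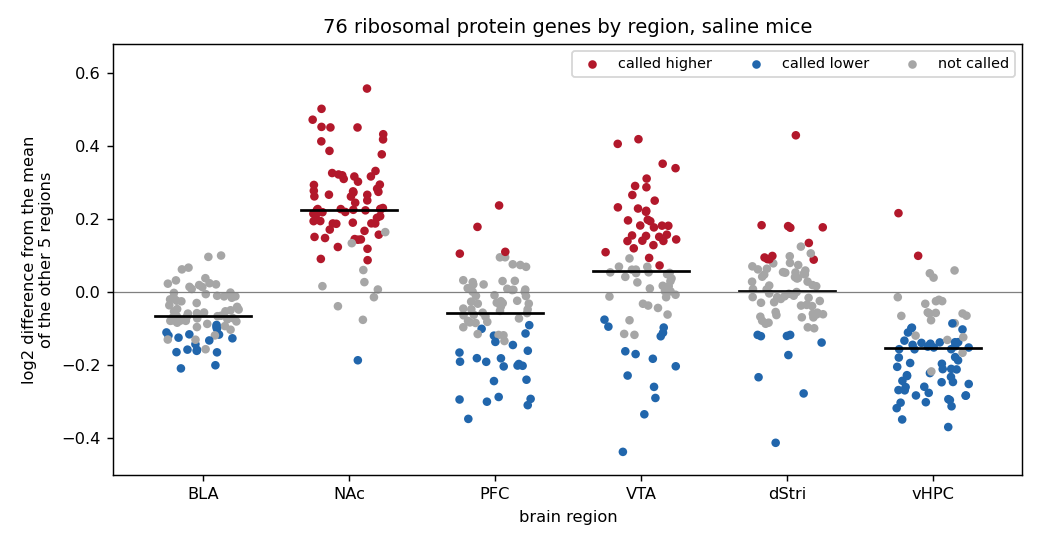
Log2 difference of each member between a region and the mean of the other 5 regions in saline mice, 1 point per gene, coloured by call (adjusted p under 0.05), with bars at the medians. In NAc 66 of the 76 points are called higher, and in vHPC 53 are called lower.

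NAc held the highest mean of the 6 regions for 57 members, VTA for 15, PFC for 3 and vHPC for 1. vHPC held the lowest for 43, PFC for 13, VTA and dStri for 8 each, BLA for 3 and NAc for 1. Set beside dStri, the other striatal region, NAc was higher for 74 of 76 members, with a median difference of 0.19. Set beside vHPC it was higher for 73, by a median of 0.32.

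Rps27 (chromosome 3, 90212522 to 90213651) moved furthest up in NAc. Its saline libraries ran from 132.6 through a median of 172.8 to 196.8 CPM there, and from 77.97 through 105.2 to 135.3 in vHPC. The 2 ranges touched only at their ends. The log2 difference between NAc and the other regions was 0.56 ± 0.05 (SE; adjusted p = 2.05e-18, edgeR), and vHPC lay 0.32 below its own reference (adjusted p = 1.12e-07). Rps27 was also higher in dStri, by 0.18.

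Rplp1 (chromosome 9, 61913284 to 61914542) followed in NAc with a median of 523.1 CPM (331.3 to 704.8), against medians of 362.0 in PFC, 362.5 in VTA and 384.1 in vHPC. Its difference was 0.50 ± 0.05 (adjusted p = 1.24e-13, edgeR). The 3 stalk proteins did not move as 1. Rplp2 was higher in NAc by 0.29 and lower in vHPC by 0.22 (log2 difference -0.22), while Rplp0 was called in VTA alone of the 6 regions, by 0.12, and did not differ over the regions as a whole (adjusted p = 0.0653).

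Rpl22 was the 1 member called lower in NAc. Its median was 70.9 CPM in NAc (57.8 to 78.9) and 95.3 in vHPC (62.9 to 113.7), its highest region. The differences were -0.19 ± 0.04 (adjusted p = 0.00021) and 0.22 ± 0.04 (adjusted p = 1.06e-05; edgeR). Rpl22 is the large-subunit protein that is tagged in RiboTag mice to pull ribosomes from chosen cells. It ran against the other members at both ends of the order, and Rpl21 was the other member called higher in vHPC, by 0.10.

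Rpl31, a protein near the mouth of the exit tunnel (chromosome 1, 39367842 to 39371911), was high in both striatal regions. Its median was 271.7 CPM in NAc (215.2 to 320.9) and 267.7 in dStri (207.8 to 322.5), and between 173.3 and 192.3 in the other 4. The ranges of NAc and dStri lay above all vHPC libraries, of which the highest was at 201.4. The log2 difference was 0.45 ± 0.04 in NAc and 0.43 ± 0.04 in dStri (adjusted p = 3.20e-18 and 2.13e-17, edgeR), and -0.37 in vHPC.

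Rps15a (chromosome 7, 118104372 to 118116188) marked dStri from the other side. Its libraries ran from 77.6 through 98.5 to 109.4 CPM in dStri and from 134.5 through 152.6 to 168.8 in VTA, with no overlap. It was 0.41 ± 0.03 lower in dStri (log2 difference -0.41, adjusted p = 4.06e-20) and 0.35 ± 0.03 higher in VTA (adjusted p = 5.25e-18; edgeR). In NAc it was not called (log2 difference -0.014). Rpl21 was also lower in dStri, at -0.28, and Rpl30 was higher there by 0.18.

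VTA joined some of the largest rises to some of the largest falls. Rps6 ran from 165.6 through 190.8 to 216.3 CPM there, against medians of 131.7 to 164.0 in the other regions, a difference of 0.41 ± 0.04 (adjusted p = 6.32e-16, edgeR). Its VTA and NAc ranges overlapped, since the highest NAc library was at 203.7. Rps2, a small-subunit protein near the mRNA entry (chromosome 17, 24718116 to 24721929), ran from 96.8 through 113.2 to 148.5 CPM in VTA and had medians of 141.6 to 166.4 elsewhere, a difference of -0.44 ± 0.04 (adjusted p = 1.52e-16). Rps6 was thus high and Rps2 low in the same libraries. Rps27l was higher in VTA by 0.42 at a low level (7.52 CPM ± 1.52, SD, n = 16), and Rpl12, a protein at the base of the stalk, was lower by 0.33 (log2 difference -0.33). Rpl41 was lower there too, at -0.29.

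In PFC, Rps26, which lines the channel where mRNA leaves the small subunit, had a median of 101.3 CPM and a lowest value of 54.1, and its highest value lay under the NAc median of 153.9. Its difference was -0.35 ± 0.06 (adjusted p = 2.84e-07, edgeR), and Rps12 followed at -0.31. Rps14 and Rpl38, the latter known for its part in the translation of Hox mRNAs, were higher in PFC, by 0.24 and 0.18. Rps16 had been called lower in PFC (-0.30, adjusted p = 0.0327), but was not without the library of mouse 50 (-0.22, adjusted p = 0.0643). Without that library Rps16 was called lower in vHPC instead (-0.23, adjusted p = 0.0402, edgeR).

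BLA had no member called higher. The nearest were Rpl9 at 0.10 and Rps2 at 0.097 (adjusted p = 0.0521, edgeR). Rpl28 and Rpl23a lay lowest there, at -0.21 and -0.20. Rpl13a, often used as a reference gene, was higher in NAc by 0.30, and Rpsa by 0.42. Rpsa ran from 380.9 to 537.3 CPM in NAc and from 263.4 to 357.2 in vHPC, 2 ranges that did not overlap. Rps27a was higher in NAc by 0.28 and lower in vHPC (-0.28).

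Rps27, Rpl31 and Rps15a varied widely between regions, with ranges of region means of 0.71, 0.67 and 0.65 log2 units. The range of Rps16 was the largest of all, 0.77, only with the library of mouse 50. Without that library it was 0.56, in place 10 of the 76, and Rps27 had the largest. Rpl7a and Rpl15 varied least, with ranges of 0.12 and 0.13. The 4 members not called over the regions were Rpl15, Rpl39, Rplp0 and Rpl7a. Their adjusted p-values lay between 0.0506 for Rpl7a and 0.262 for Rpl15.

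Other genes of the translation machinery did not all follow the members. In NAc all 7 tested hosts of small nucleolar RNAs were called higher, and their median log2 difference was 0.39. They included Gas5 at 0.39, Snhg6 at 0.51 and Snhg5 at 0.63, noncoding transcripts that share the oligopyrimidine start of the ribosomal protein mRNAs. Of 12 genes for RNA polymerase I and its factors, which make ribosomal RNA, 6 were called higher in NAc and 0 lower, among them the activator Ubtf at 0.19. Of the ribosome biogenesis factors 8 of 28 were called in each direction, which is near the share of all genes in NAc (28% higher and 25.6% lower). Of 30 initiation factors 6 were higher and 11 lower, with Eif4g1 at -0.25.

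Of the 8 elongation factors, 3 were called higher and 3 lower in NAc (28% and 25.6% of all genes). Eef1a1, the form found in most tissues, was higher by 0.34, and Eef1a2, the form of mature neurons and muscle, was lower (-0.23). In VTA 6 of the 8 were called higher and 2 lower (33.8% and 36.3% of all genes), with Eef2, which moves the ribosome along the mRNA, at 0.69. In vHPC, where most members were low, 10 of 18 genes of growth and mTOR control were called higher and 1 lower (25.6% and 24.4% of all genes). Among those higher was Larp1 at 0.34. Larp1 was lower in NAc, at -0.32, and so ran opposite to most members at both ends of the regional order.

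A few further genes encode ribosomal proteins, or a protein bound to the ribosome, under names outside the pattern. In NAc 3 of the 7 on this list were called higher and 1 lower (28% and 25.6% of all genes). Rps3a1 was at 0.22 and Rack1, a scaffold on the small subunit, at 0.18, while Rpl7l1, a paralogue of Rpl7, was at -0.11. In vHPC 4 were lower and 1 higher (24.4% and 25.6% of all genes), and Rps3a1 was at -0.20.

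Does heroin change the members within a region? Each region was tested at 24 h (H24 against S24) and at 30 d for a challenge alone (SH against SS), a history alone (HS against SS), the combination (HH against SS), the mean effect of challenge, the mean effect of history, and their interaction. No member was called in any of the 42 tests, nor in the 7 tests on the mean over the regions of a mouse (edgeR and limma, Benjamini-Hochberg adjustment over all genes; DESeq2 also called 0 within regions). Few genes of any kind were. The share of all tested genes called was 0 in most tests, 0.00506% in NAc for SH against SS and for the challenge, 0.015% in PFC for SH against SS, 0.235% in PFC for the challenge, 0.00513% in dStri for the challenge, and 0.0455% in the mouse mean for the challenge. At an unadjusted p under 0.05, between 0 and 33 of the 76 members passed per regional test, and between 1 and 9 in the mouse mean. For no member did 2 groups of a region have ranges that did not overlap, over 24 pairs of groups, and at most 10 of the 25805 genes compared had such ranges in a pair.

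The one regional test with many small p-values was that of heroin history in dStri, (HS + HH)/2 against (SS + SH)/2. All 76 members were higher, by 0.015 to 0.27 on the log2 scale and a median of 0.13, where 51.8% of all genes were higher and their median was 0.0041. At an unadjusted p under 0.05 stood 33 members (43.4%), all of them higher, against 6.31% of all genes in either direction. Since the members move together from library to library, these are not separate observations, and none passed the adjusted threshold.

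Rps29 (chromosome 12, 69157722 to 69159186) had the smallest p. In dStri its lowest, median and highest CPM were 248.3, 276.6 and 356.5 in SS, 224.8, 268.3 and 299.9 in SH, 268.4, 351.4 and 393.4 in HS, and 254.9, 332.3 and 393.2 in HH. Both groups with a heroin history had the higher medians, and their ranges overlapped those of the others. The log2 difference was 0.27 ± 0.06 (SE), higher than the mean of the saline-history libraries in 13 of 16, with an unadjusted p of 0.000115 and an adjusted p of 0.265 (edgeR).

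Rplp1 in dStri had medians of 429.2 CPM in SS (369.3 to 536.0), 408.8 in SH, 505.7 in HS (365.3 to 682.2) and 460.2 in HH (429.3 to 619.5). Its difference was 0.24 ± 0.07 (adjusted p = 0.609, edgeR). Rps28, at 0.23, Rplp2, at 0.21, Rps15, at 0.18, and Rpl19, at 0.17, had adjusted p-values between 0.609 and 0.698. Rps6 (0.033), Rplp0 (0.076) and Rpsa (0.095) lay lower in the range. None of these passed the test.

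The mean of the members in dStri, as log2 CPM, was 6.94 ± 0.08 in SS, 6.91 ± 0.16 in SH, 7.04 ± 0.14 in HS and 7.04 ± 0.24 in HH (SD, n = 8 each). In 11 of the 16 libraries with a heroin history it lay above the mean of the 16 others. HH mouse 9, a library that stood apart, had the highest value, 7.46, and without it HH was at 6.98 ± 0.18 (n = 7). The median difference for history was then 0.091, with 73 of 76 members higher and 19 at an unadjusted p under 0.05.

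**Figure D3:**
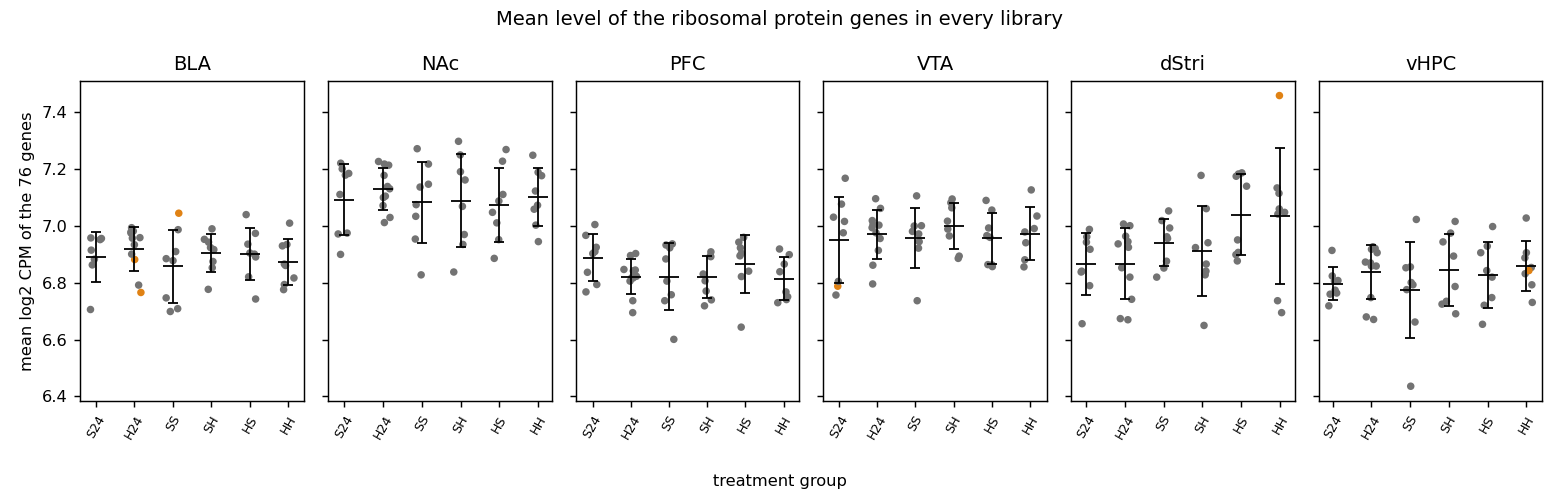
Mean of the 76 members as log2 CPM in each library, by region and treatment group, 1 point per mouse, with group means and SDs and the libraries that stand apart in orange. The groups of a region overlap throughout, the NAc group means lie highest, and dStri HH mouse 9, at 7.46, lies above all other points.

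The comparisons with SS share these 8 libraries, and their values are given side by side. HS against SS had 74 of 76 members higher, a median of 0.11 and 9 members at an unadjusted p under 0.05 (3.37% of all genes). HH against SS had 76 higher and a median of 0.10. Without HH mouse 9 the latter came to 57 higher and a median of 0.038.

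Read shares moved with the same groups. The median share of reads outside annotated genes in dStri was 10.3% in SS, 9.04% in SH, 8.06% in HS and 8.29% in HH, and that of reads aligned to several places was 11.8%, 11.8%, 13.6% and 12.9%. Summed markers of striatal projection neurons had medians of 4026, 4025, 3995 and 4071 CPM in the same order (lowest 3053, highest 4455), and those of oligodendrocytes 3387, 3735, 3882 and 3648 CPM (2806 to 5177). None of these 11 markers was at 0 in every library. Heroin history was also partly bound up with the code set of the mouse's BLA library: HS and HH had 6 mice each in set 1 and 2 in set 2, SH had 4 and 4, and SS had 3 and 5. With the set as a covariate all 76 members were still higher, with a median of 0.13 and 31 at an unadjusted p under 0.05. What part the read shares have in the difference was not tested.

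In dStri the other lists had no gene called for history. The 7 ribosomal protein genes outside the pattern were all higher, with a median of 0.065, as were 7 of 8 elongation factors (median 0.055) and 6 of 7 hosts of small nucleolar RNAs (median 0.16). Of the 30 initiation factors 13 were higher, and of the 18 genes of growth and mTOR control 6 were.

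In PFC at 24 h the members pointed the other way. In H24 against S24, 63 of 76 were lower, with a median of -0.068. At an unadjusted p under 0.05 stood 9 members (11.8%), all lower, against 2.48% of all genes in either direction. The median share of reads outside genes was 9.75% in S24 and 11.25% in H24. Markers of blood, of which all 4 were higher in H24, summed to 132.5 to 214.4 CPM in S24 (median 167.5) and 127.5 to 348.6 in H24 (208.8). Those of oligodendrocytes had medians of 2114 CPM (1387 to 3596) and 1699 (1184 to 4979). No marker was called or at 0 in every library, and their part in these values was not tested. Without S24 mouse 50, whose Rps16 value stood apart, 58 were lower, the median was -0.034 and 2 members stood there. Rpl10 (X chromosome, 74270812 to 74273135) had the smallest p. It ran from 78.3 through 95.4 to 104.3 CPM in S24 and from 68.2 through 76.5 to 95.4 in H24, and 10 of the 11 H24 libraries lay under the S24 mean. Its difference was -0.26 ± 0.07, with an adjusted p of 1.00 (edgeR).

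Rpl10 also had the smallest p for the challenge in PFC. Its lowest value and median were 84.4 and 98.4 CPM in SS, 83.3 and 94.3 in HS, 78.8 and 84.98 in SH, and 74.98 and 85.1 in HH. The means were 97.5 ± 10.9 (SD), 95.5 ± 9.66, 88.2 ± 7.99 and 85.99 ± 7.31 CPM in the same order (n = 8 each). Both challenged groups had the lower medians, and 14 of their 16 libraries lay under the mean of the others. The difference was -0.16, with an adjusted p of 0.171, and that of Rpl23a was -0.17, with 0.194 (edgeR). Over the members, 64 of 76 were lower, with a median of -0.041. At an unadjusted p under 0.05 stood 10 members (13.2%), all lower, against 8.94% of all genes in either direction. In this test 2 of 4 markers of meningeal fibroblasts were called lower, and their summed levels ran from 27.3 to 54.8 CPM in SS, 29.1 to 54.9 in HS, 16.6 to 32.9 in SH and 19.9 to 39.4 in HH. All 5 oligodendrocyte markers were lower, none of them called, with summed medians of 2120 CPM in SS (1018 to 3191), 2042 in HS (1198 to 3021), 1243 in SH (1039 to 2827) and 1600 in HH (1016 to 2306). Those of excitatory neurons, of which 4 of 5 were higher and none called, had medians of 2775, 2680, 3325 and 3042 CPM in the same order (2388 to 3789 over all 4 groups). No marker of these 3 lists was at 0 in every library. The part of these markers in the values of Rpl10 and of the other members was not tested.

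In NAc at 24 h the values of Rpl10 pointed up. It ran from 79.4 through 96.9 to 120.2 CPM in S24 and from 101.8 through 112.5 to 126.7 in H24, with all 11 H24 libraries above the S24 mean. The difference was 0.23 ± 0.07, with an adjusted p of 0.339 (edgeR). Of the members, 54 were higher, by a median of 0.043, and 7 stood at an unadjusted p under 0.05 (7.63% of all genes). Markers of 3 other cell types are given beside these values. All 5 markers of excitatory neurons were lower in H24, with a median log2 difference of -2.21, and summed to 695.9 to 940.6 CPM in S24 and 450.0 to 801.4 in H24. All 4 blood markers were higher (127.6 to 191.3 and 122.6 to 296.6 CPM summed), as were all 4 of endothelial and mural cells (186.0 to 302.3 and 218.2 to 339.4). No marker was called or at 0 in every library, and their part in these values was not tested.

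Rps16 had the widest values at 24 h. In NAc it ran from 64.6 through 130.6 to 155.4 CPM in S24 and from 70.2 through 92.9 to 123.7 in H24, a difference of -0.41 ± 0.12 (adjusted p = 0.370, edgeR). In vHPC it ran from 49.2 through 68.6 to 98.6 in S24 and from 64.8 through 90.2 to 117.4 in H24, a difference of 0.35 ± 0.14 (adjusted p = 1.00). The 2 regions pointed opposite ways, a difference that was not itself tested, the ranges overlapped in both, and neither passed the test.

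In the tests not yet described the medians were closer to 0 than in dStri for history. At 24 h the members higher in H24 were 68 in BLA (median 0.046), 63 in vHPC (0.038), 37 in VTA (-0.0021) and 31 in dStri (-0.0085). For the challenge they were 69 in vHPC (0.057), 53 in VTA, 44 in NAc, 33 in BLA and 26 in dStri. For history outside dStri they were 61 in vHPC (0.028), 44 in PFC (0.0063), 42 in BLA (0.010), 32 in NAc (-0.0046) and 24 in VTA (-0.023). Without BLA HH mouse 16 the counts in BLA were 33 for the challenge and 43 for history. Against SS in vHPC, 61 members were higher in SH (median 0.089), 53 in HS (0.057) and 70 in HH (0.080). The SS libraries of vHPC include that of mouse 32, with the lowest member mean of all libraries used, 6.44. The treatment tests in vHPC were not run without it. The mean over the regions of a mouse had 75 of 76 members higher for history, with a median of 0.022 and 9 at an unadjusted p under 0.05 (4.55% of all genes), where 49.96% of all genes were higher. Rps6, at 0.042, had the smallest p of these (adjusted p = 0.996, limma). This mean includes dStri, where the median for history was 0.13 and the library of HH mouse 9 stood apart. In the other regions the medians for history lay between -0.023 and 0.028. The mouse mean was not fitted without dStri.

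**Figure D4:**
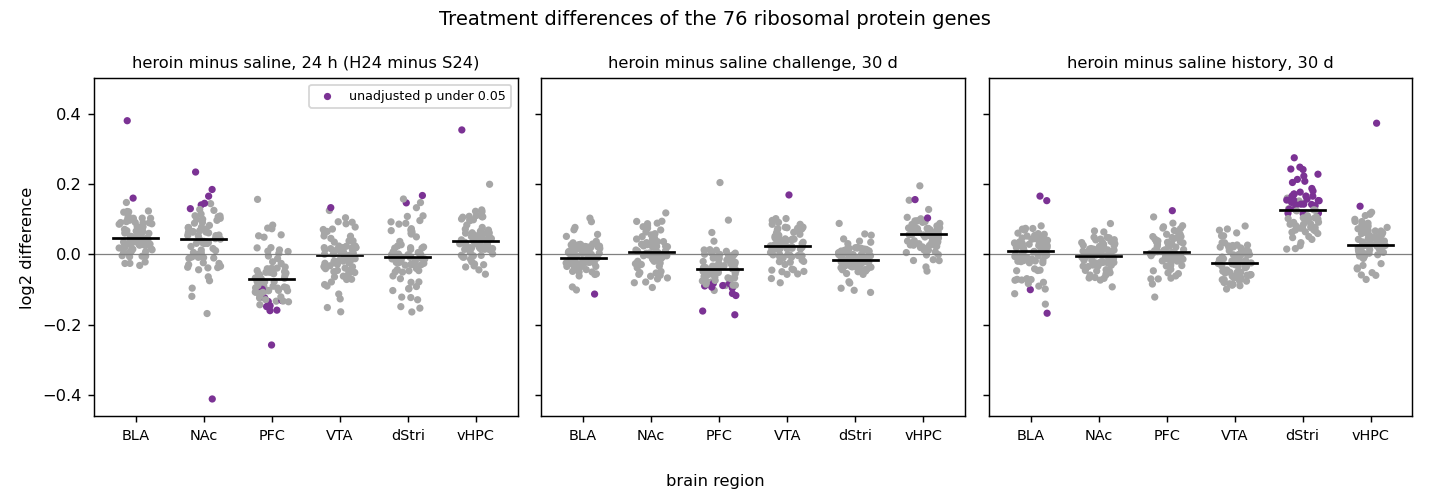
Log2 difference of each member by region for heroin against saline at 24 h, for challenge and for history at 30 d, 1 point per gene, with the median of the members as a bar and unadjusted p under 0.05 in purple. In dStri all 76 points lie above 0 for heroin history, and no point passed an adjusted p of 0.05.

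How do the members vary among mice of the same group? After each library was centred on its group, the median correlation over the 2850 pairs of members was 0.64 in dStri, 0.52 in NAc, 0.49 in vHPC, 0.45 in VTA, 0.41 in PFC and 0.38 in BLA (50 or 51 libraries per region). Between 80.2% and 93.8% of the pairs were positive. Over pairs of all genes the median lay between -0.001 and 0.004. The members of a library share its depth and preparation, so these values describe the libraries and carry no test.

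Most members followed the mean of the others closely. The median correlation with it over the 6 regions was 0.90 for Rpl37a, 0.88 for Rps19, the gene most often mutated in Diamond-Blackfan anaemia, and 0.88 for Rps23. It was over 0.5 for 59 of the 76 members, and 70 had a positive value in every region. At the other end stood Rpl29 at -0.16, Rpl28 at 0.015, Rps26 at 0.077, Rpl35 at 0.16 and Rps16 at 0.18. The bound of 0.19 that set these 5 apart was chosen after the values were seen, and members outside it, such as Rpl21 at 0.20 and Rplp1 at 0.21, lay close to it.

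The median r of the 5 with each other was 0.58 to 0.63 in the 6 regions, against 0.42 to 0.68 among the 71 others. Single pairs among the 5 were uneven. As a mean over the regions, 7 of the 10 pairs had an r over 0.5. The 10 pairs ran from 0.80 for Rpl28 with Rps26 down to 0.039 for Rpl35 with Rps16. Rpl28, Rps26 and Rpl29 correlated with each other at 0.71 or above, while Rpl35 correlated most with Rpl17 (0.67) and Rpl21 (0.60), outside the 5. The median correlation between the 5 and the 71 others was -0.12 to 0.077 in the 6 regions, a value that the choice of the 5 sets. Rps16 had an r of -0.22 with the mean of the other members in PFC, and 0.056 without the library of mouse 50, while its median over regions stayed at 0.18. The median of Rps26 was 0.12 without that library. Both subunits were represented, with Rps26 and Rps16 of the small subunit and Rpl29, Rpl28 and Rpl35 of the large. Of the 5, Rpl28, Rpl35 and Rps26 carry a tract, as the windows above show, and Rps16 does not. Rpl29 had no promoter sequence at hand. Over all members with a sequence, 31 of 56 carry a tract. Rpl28 also correlated with Rplp1, outside the 5, at 0.73. The GC content of the 5 was 48.6% to 57.7% (median 55.1%), inside the range of the 71 others (41.3% to 60.8%, median 51.9%), and their median transcript length was 939 bases against 780.

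**Figure D5:**
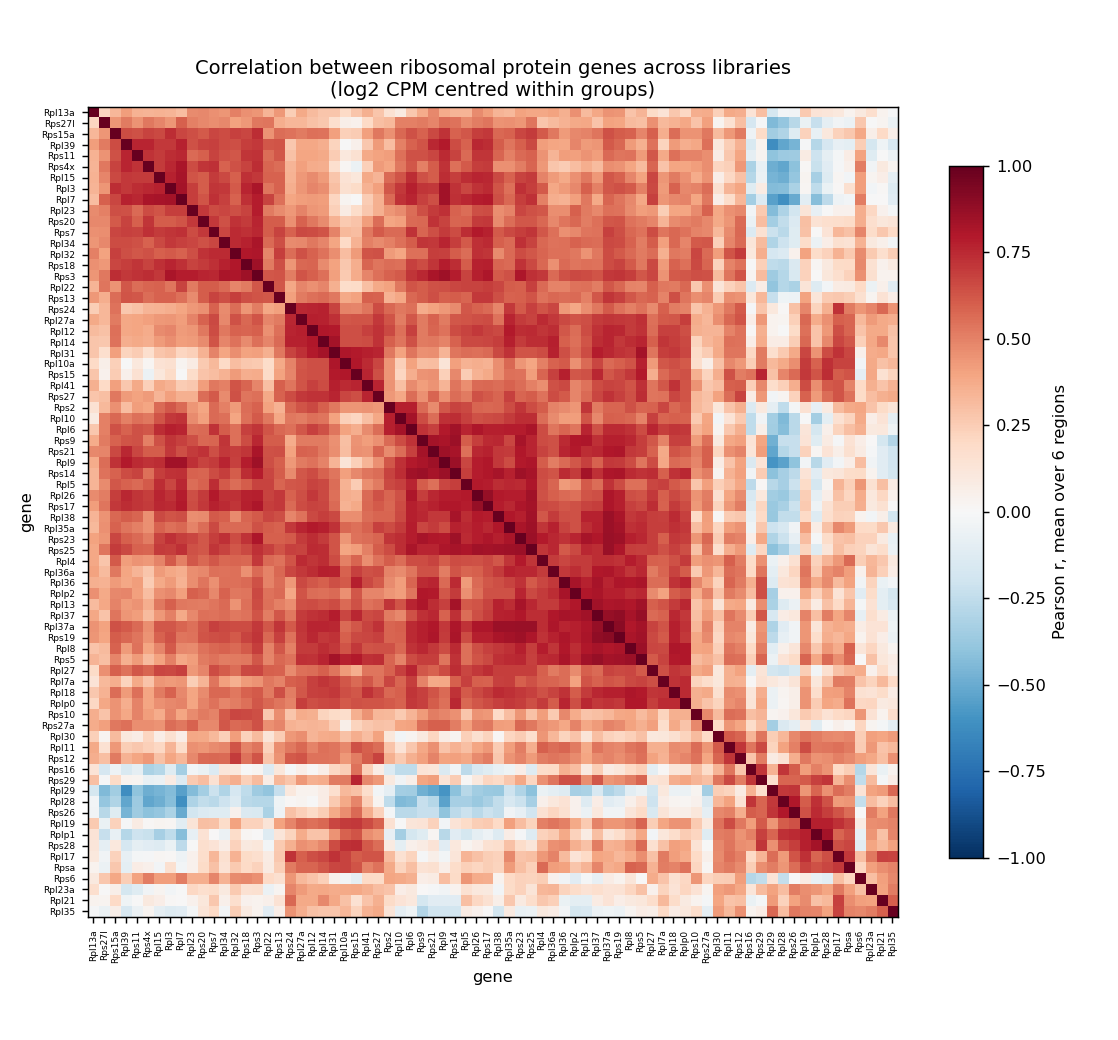
Pearson correlation between each pair of 74 members over libraries centred on their groups, as the mean over the 6 regions, with genes of similar profile placed together. Most pairs are positive, and Rpl29, Rpl28 and Rps26 adjoin in a block with values near or below 0 against most of the rest.

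In 6 of 6 regions the mean of the members was lower in libraries with more reads outside annotated genes. Pearson's r lay between -0.67 and -0.43 and Spearman's rho between -0.69 and -0.43, and without the 2 libraries farthest from the median r was -0.63 to -0.36. Among 24 h mice alone r was -0.65 to -0.047, and among 30 d mice -0.73 to -0.36. With the share of reads aligned to several places r was 0.29 to 0.76 (rho 0.19 to 0.73, and 0.23 to 0.71 without the 2 farthest). With the total count it was -0.10 to 0.29. For the mean of the 5 genes r with the share outside genes was -0.41 to 0.13. Their mean and that of the 71 others had an r of -0.22 to 0.15. These are descriptions over 50 or 51 libraries per region, whose shares and members come from the same reads.

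The mean level of the members in 1 region said little of that in another region of the same mouse. Between pairs of regions of the same mice, the correlation of the members' mean had a median of -0.048 over 15 pairs of regions and ran from -0.46 for BLA and NAc to 0.36 for BLA and vHPC (49 to 51 mice).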

How the data were processed

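Total RNA (Qiagen RNEasy Micro extraction) was depleted of ribosomal RNA and made into strand-specific TruSeq Gold libraries read as paired ends, per the labels' protocols. The submitters' processing notes name HISAT2, HTSeq, SAMtools and FastQC, and the build mm10. Versions, annotation release and strand setting of the counting are not given in the sources used here. The values used are raw counts, which the authors deposited as 1 table of Ensembl genes by libraries; their gene rows alone make up library sizes. The authors also deposited a signal table per region, in which each library's counts are multiplied by 1 constant; from it only the shares of reads outside genes or aligned to several places were used. Over libraries the former had region medians of 7.15% to 10.1% and the latter 8.17% to 12.2%. No value column lacked a sample (0).

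Symbols, coordinates and lengths come from GENCODE M21 (52403 of 52636 genes matched), promoters from RefSeq. Members and gene lists were chosen with earlier results of these data known. The genes named are the 5 highest and lowest per length, the 4 with the largest and 2 with the smallest range over regions, the 2 highest and lowest per region, those with the smallest p per treatment test, and 11 members and 5 paralogues chosen by name. Named genes of the lists, at most 3 each, are those with the smallest p. The 5 members described for their correlations, and Rps19, Rps23 and Rpl37a beside them, were chosen after their values were seen. Of the 76 members, 2 enter every count and fit but are not reported by name or drawn singly here.

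Counts were fitted in R 4.3.3 with edgeR 4.0.16 (filter at a minimum count of 10, TMM factors, quasi-likelihood test, adjusted p under 0.05). Regions were compared over S24 and SS with a term for time. Treatments were tested per region, 24 h and 30 d mice apart, and mouse means with limma 3.58.1. CPM by library, group or region and log2 CPM (prior count 1) are TMM-scaled. Mean CPM over all libraries used, for membership, level per length and pseudogenes, is scaled to the library total alone. Fits were tested on simulated data. Alternatives were other scalings, no filter, DESeq2 1.42.0, libraries left out, mouse as a block, a code set term and reads of the -ps pseudogenes added.

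The mouse number in the labels pairs libraries across regions. Deviations of libraries of the same saline mouse had a median correlation of 0.0072 over 235 pairs, and of other mice -0.0014 over 1645. No libraries of a group agreed within counting noise (smallest chi-square per degree of freedom 7.07). At these depths the lowest member, Rps27l, had a mean of 6.26 CPM, so counting error is small beside the spread between mice.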

Additional observations from a re-analysis of the deposited data

Results flagged for a closer look

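A member mean far below its group was seen in 2 of the 30 groups of a region that hold 4 to 10 mice. Chance alone gives about 1 in 20 groups. In BLA, S24 mouse 46 had the lowest mean of the members, 6.71 as log2 CPM, where the next was 6.86 and the highest 6.96. Its share of reads outside genes was 11.4% against a group median of 7.63%, and its share aligned to several places 6.66% against 8.16%. In PFC, HS mouse 12 had the lowest, 6.64, where the next was 6.82 and the highest 6.96. Its share outside genes was 20.0% against 10.1%, the highest of all libraries used, and its share aligned to several places 7.30% against 9.13%. The part of these shares in the low means was not tested.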

How the results depend on the processing

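No member was called in the 49 treatment tests under any setting tried. Region calls depended more on the choices. The count of members that differ between regions was 72 with size factors by the median of ratios and 72 with mouse as a replicate block, 73 without a filter, with pseudogene reads added or without PFC S24 mouse 50, 74 with upper quartile scaling or without the libraries that stand apart, 64 in S24 mice alone and 61 in SS mice alone. The replicate block moved no regional count by over 1.5 times.

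The following regional counts moved by over 1.5 times. With upper quartile scaling 31 members were lower in BLA, 22 higher and 5 lower in dStri, and 1 higher in vHPC. In S24 mice alone 3 were lower in BLA, 2 higher and 7 lower in PFC, and 3 higher in dStri. In SS mice alone 6 were lower in BLA, 0 lower in NAc, 0 higher in PFC, 7 lower in VTA, 3 lower in dStri, and 0 higher and 34 lower in vHPC; these fits hold fewer mice. Without a filter 7 were lower in VTA. With pseudogene reads 1 was higher in BLA and 1 in vHPC. The cause was not tested.

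Values that changed sign were all near 0 and not called: with the median of ratios Rps16 in dStri (0.0030), Rplp2 in VTA (-8.63e-05), Rps6 in dStri (0.0056) and Rps27a in dStri (0.015), without PFC S24 mouse 50 Rps16 in VTA (-0.0003675) and Rplp0 in PFC (-0.0073), and without the libraries that stand apart Rpl10 in VTA (0.0093) and Rpl41 in BLA (-0.0090). Besides Rps16, leaving out mouse 50 ended the call of Rpl22 in PFC (0.081, adjusted p = 0.118, edgeR) and added that of Rpl39 in NAc (0.173, adjusted p = 0.0385). Without the libraries that stand apart Rpl7a (-0.090) and Rpl22 (-0.13) in BLA and Rpl41 in dStri (0.10) were also called, and with the median of ratios Rpl22 in BLA (-0.11) and Rpl41 in dStri (0.12). Leaving out BLA HH mouse 16 or, for ranges and correlations, PFC S24 mouse 50 was chosen after seeing the data. Depth was ample for single genes; 15 or 16 libraries per region and 7 to 11 per treatment group limit the rest.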

Other observations

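Beside Rps16 in the PFC of S24 mouse 50, the member values over 1 log2 unit from the median of their region were few and fell on few genes. In vHPC, SS mouse 32 had 3 of them: relative to the region median, Rps27l was at -1.32, Rps14 at -1.22 and Rps21 at -1.05 on the log2 scale. Rps27l was also low in vHPC HS mouse 14 (-1.08), and high in vHPC H24 mouse 40 (1.16). Rps16 was low in dStri H24 mouse 51, at 44.9 CPM against a median of 92.3, and in PFC HH mouse 5, at 42.1 against 85.5. Within groups, Rps16 and Rps27l had the largest SD of log2 CPM of the members, 0.33 and 0.31 (median over the 6 regions), Rps27l at the lowest level of all 76.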
